A study of Homo sapiens with 2 samples.

Results

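Cholesterol and fatty acid synthesis was examined in PC3 cells through 32 genes chosen by name from the pathway: 5 regulators of the pathway, 18 enzymes of sterol synthesis, 4 enzymes that build fatty acids and 5 enzymes that lengthen or desaturate them. All 32 genes were represented on the array, by 52 probes, and all 32 had at least 1 probe that passed the filter on dim signals, among 19218 genes that passed. For 30 of the 32 the probe used was well above background in both channels on both arrays; those of FASN and ACACA were so in the SUB1 siRNA channel only. PC3 is an established androgen-independent prostate cancer cell line, and SUB1 (also called PC4) is a transcriptional coactivator. The cells were transfected with SUB1 siRNA 1, SUB1 siRNA 2 or a non-targeting (Non-T) siRNA, received the same transfection again 24 h later and were harvested 72 h after the first. Each siRNA was compared with Non-T siRNA on 1 two-colour Agilent array, with the SUB1 siRNA sample always labelled with Cy5 and the Non-T sample always with Cy3.

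These groups share the cell line, serum-containing medium, the transfection reagent and the time of harvest. With 1 array per siRNA and no dye swap there was no replicate within a siRNA, and a dye bias of a gene and its response to the siRNA cannot be told apart. Both comparisons use Non-T RNA, and whether it was the same extract was not given in the sources used here. The values come from whole cultures, so less RNA per cell and fewer cells that express a gene cannot be told apart. SUB1 itself was reduced by both siRNAs, with log2 ratios of -3.30 and -3.26 that left 10.2% and 10.4% of the Non-T signal (adjusted p = 0.0248, limma). Of 7 markers that PC3 cells are known to express, such as keratins and VIM, 7 were well above background. Among markers that are low or absent in this line, KLK3 was above background through 1 of its 3 probes only.

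Cells make cholesterol from acetyl-CoA through mevalonate and a long series of sterol intermediates, and they make fatty acids from the same precursor. Most genes of both routes are read out by the sterol regulatory element-binding proteins, encoded by SREBF1 and SREBF2. When membrane sterol is low, SCAP escorts these proteins from the endoplasmic reticulum to the Golgi, where proteases release the part that enters the nucleus; when sterol is high, INSIG proteins hold SCAP back. In prostate cancer, lipid synthesis is known to be raised and to be driven in part by the androgen receptor, which PC3 cells lack in functional form.

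The binding proteins recognise the sterol regulatory element, and the factors NF-Y and Sp1, which bind CCAAT and GC boxes, are known to act beside them. Upstream sequences of 6 members are shown because the results turn on these genes: HMGCS1 as the member past the 2-fold rule, FADS1 and ELOVL5 with the next largest ratios in each direction, SCD and INSIG1 as those that differed most between the siRNAs in the upward direction, and SREBF2 as the member with a match to the element. Each is the 250 bases before the RefSeq start of the gene in GRCh38.p14, written 5′ to 3′ on the strand of the gene, with capitals for matches to TCACNCCAC or CCAAT on either strand.
HMGCS1: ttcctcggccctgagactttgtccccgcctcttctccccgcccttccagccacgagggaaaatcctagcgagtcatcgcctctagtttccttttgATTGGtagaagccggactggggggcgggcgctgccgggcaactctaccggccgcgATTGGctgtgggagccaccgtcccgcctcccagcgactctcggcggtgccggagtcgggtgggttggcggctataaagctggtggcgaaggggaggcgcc
SREBF2: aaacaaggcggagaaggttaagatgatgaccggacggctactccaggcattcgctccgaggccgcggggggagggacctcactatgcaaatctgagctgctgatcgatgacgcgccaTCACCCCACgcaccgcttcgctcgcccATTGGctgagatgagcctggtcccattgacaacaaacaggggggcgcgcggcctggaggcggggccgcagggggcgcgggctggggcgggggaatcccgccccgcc
INSIG1: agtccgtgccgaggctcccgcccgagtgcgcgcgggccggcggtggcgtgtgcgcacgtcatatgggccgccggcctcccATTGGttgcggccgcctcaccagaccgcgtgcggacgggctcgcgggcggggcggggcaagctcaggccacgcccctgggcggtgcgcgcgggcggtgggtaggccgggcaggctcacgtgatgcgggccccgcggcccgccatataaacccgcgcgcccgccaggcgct
SCD: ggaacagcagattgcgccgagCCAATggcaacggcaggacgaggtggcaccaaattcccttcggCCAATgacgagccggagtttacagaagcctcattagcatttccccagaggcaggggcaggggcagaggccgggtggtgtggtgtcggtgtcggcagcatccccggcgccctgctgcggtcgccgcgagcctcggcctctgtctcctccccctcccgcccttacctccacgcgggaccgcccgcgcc
FADS1: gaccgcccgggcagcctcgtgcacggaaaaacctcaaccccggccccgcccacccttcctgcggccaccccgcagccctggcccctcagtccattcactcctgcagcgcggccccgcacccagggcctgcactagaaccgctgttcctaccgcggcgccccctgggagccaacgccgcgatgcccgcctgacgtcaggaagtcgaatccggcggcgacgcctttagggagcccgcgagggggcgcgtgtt
ELOVL5: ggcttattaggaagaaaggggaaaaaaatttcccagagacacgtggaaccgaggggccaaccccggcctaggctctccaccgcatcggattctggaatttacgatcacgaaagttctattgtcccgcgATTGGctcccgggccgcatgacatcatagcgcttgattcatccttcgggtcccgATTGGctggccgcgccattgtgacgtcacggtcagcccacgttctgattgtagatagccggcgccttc

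The windows lie at chr5:43313413-43313662 (minus strand, HMGCS1), chr22:41832855-41833104 (plus strand, SREBF2), chr7:155297628-155297877 (plus strand, INSIG1), chr10:100346983-100347232 (plus strand, SCD), chr11:61817004-61817253 (minus strand, FADS1) and chr6:53348951-53349200 (minus strand, ELOVL5). HMGCS1 and ELOVL5, whose ratios had opposite signs, each held 2 CCAAT matches, both on the reverse strand. In HMGCS1 they spanned positions -155 to -151 and -100 to -96 from the start, and in ELOVL5 positions -122 to -118 and -68 to -64. The FADS1 window held neither of the capitalised motifs.

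RefSeq promoters, each from 250 bases before to 50 after the start, were matched for 28 of the 32 members; ACAT2, FDFT1, SQLE and FASN had no matched entry. The sterol regulatory element, written TCACNCCAC, was found in 1 of the 28 (SREBF2, positions -133 to -125), or 3.57%, against 1.15% of all 27305 promoters. CCAAT was found in 17 of 28 (60.7%) against 35.7% of all promoters, and GGGCGG, the core of the GC box, in 24 of 28 (85.7%) against 44.6%. The E-box CACGTG, which these proteins can also bind, was found in 5 of 28 (17.9%) against 7.43%. All 4 motifs were searched on both strands, and none contains another. CCAAT and GC boxes thus had larger shares among the members than among all promoters, where 15843 protein-coding promoters held them at 36.4% and 58.5%, and no test was made of these shares. These matches describe letters in a short window and do not mark binding sites.

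Few of the 32 genes moved far after SUB1 knockdown. A gene was called changed on an array at an absolute fold change of at least 2, the rule in the study's methods. With siRNA 1, 0 of 32 members were at least 2-fold higher, beside 0.208% of all genes, and 0 were at least 2-fold lower, beside 0.609%. With siRNA 2, 1 member (HMGCS1) was at least 2-fold higher, beside 0.614% of all genes, and 0 were at least 2-fold lower, beside 1.07%. At those shares less than 1 gene in a list of 32 is past the rule in each case, so a count of 0 or 1 does not set the members apart.

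Over the members, the median log2 ratio against Non-T siRNA was 0.05 (siRNA 1) and 0.09 (siRNA 2), and over all genes it was 0.02 on each array. Ratios were above 0 for 19 of 32 members (59.4%) with siRNA 1 and 22 of 32 (68.8%) with siRNA 2, beside 54.1% and 53.6% of all genes. The median size of a ratio, sign disregarded, was 0.156 with siRNA 1 and 0.206 with siRNA 2 over the members, and 0.160 and 0.174 over all genes. On both arrays 26 of 32 members lay within 0.5 of 0, as did 83.8% of all genes. By these measures the members were spread about as widely as genes at large, with single genes at the edges. At the upper edge with siRNA 2, 5 of 32 members were at least 1.5-fold higher, beside 3.51% of all genes, and this share was not tested.

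**Figure D1:**
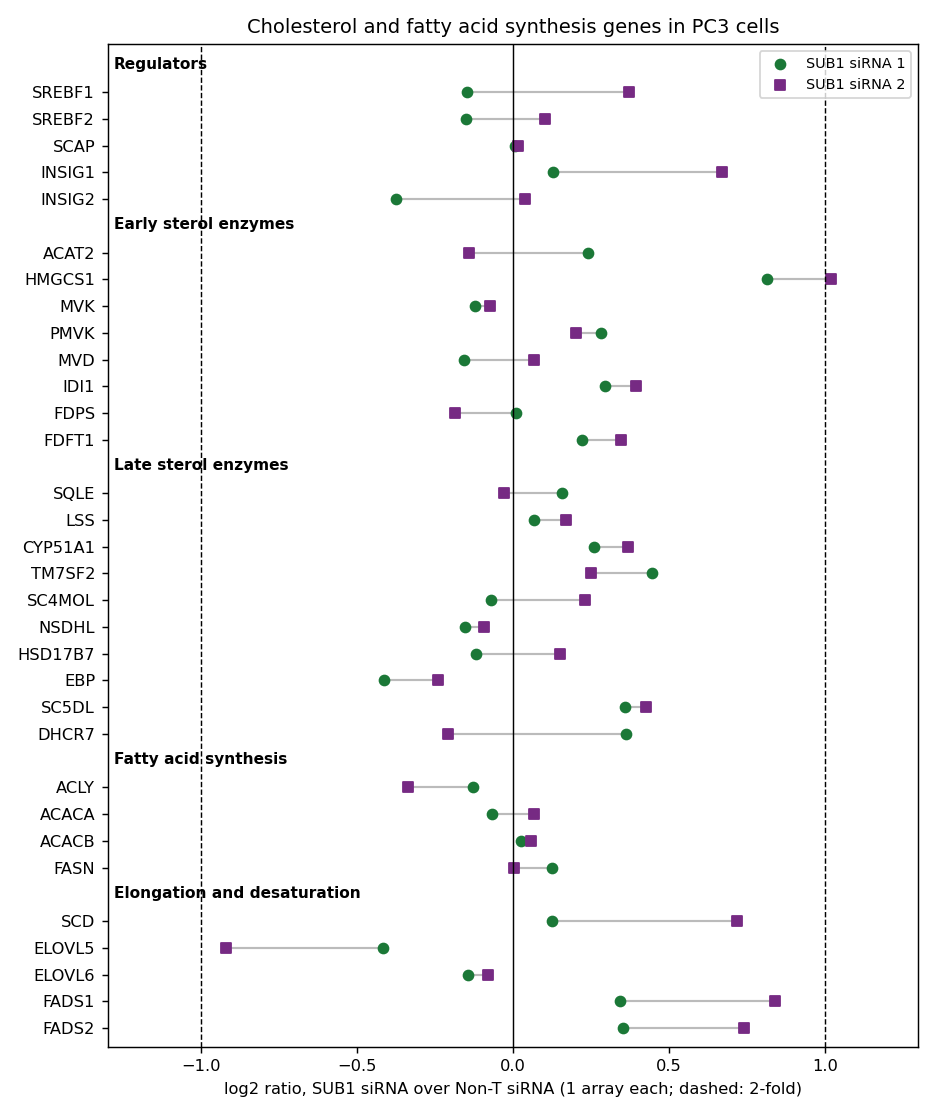
Log2 ratio against Non-T siRNA (x axis) for each of the 32 genes, grouped by role, with siRNA 1 as green circles and siRNA 2 as purple squares, 1 array each. Dashed lines mark a 2-fold change, which HMGCS1 alone passed (1.02 with siRNA 2), and ELOVL5 was the lowest of the members on both arrays (-0.42 and -0.92). FASN and ACACA were not well above background in the Non-T channel.

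At a smaller threshold of 1.5-fold more members were past the line with siRNA 2 than with siRNA 1. With siRNA 1, 1 member (HMGCS1) was at least 1.5-fold higher, beside 2.43% of all genes, and 0 were lower, beside 3.02%. With siRNA 2, 5 members (HMGCS1, INSIG1, SCD, FADS1 and FADS2) were at least 1.5-fold higher, beside 3.51% of all genes, and 1 (ELOVL5) was at least 1.5-fold lower, beside 4.23%. Of these 6 genes, 4 act in desaturation or elongation of fatty acids, a role held by 5 of the 32 members.

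The scanner software, Agilent Feature Extraction, gives each log ratio a p-value from the technical error of 1 array, which says nothing of variation between cultures. At a value under 0.01, 1 member (HMGCS1) was higher with siRNA 1, beside 6.31% of all genes, and 0 were lower, beside 5.52%. With siRNA 2, 6 members (HMGCS1, INSIG1, SC5DL, SCD, FADS1 and FADS2) were higher, beside 8.86%, and 1 (ELOVL5) was lower, beside 8.02%.

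A limma fit across all 19218 genes then asked whether the mean of both arrays differed from 0, a test that leaves out the spread of the control. No member passed an adjusted p of 0.05 (lowest 0.112, highest 0.9997, limma), and 1 gene in all, SUB1, passed it (0.00520% of genes). At an unadjusted p under 0.05, 8 members were higher (HMGCS1, IDI1, FDFT1, CYP51A1, TM7SF2, SC5DL, FADS1 and FADS2), beside 11.0% of all genes, and 2 were lower (EBP and ELOVL5), beside 9.91%. Of those 8 genes, 6 encode enzymes of sterol synthesis, whose early and late groups make up 8 and 10 of the 32 members.

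The spread between the arrays lay in the SUB1 siRNA channel. Between the arrays, the Non-T log2 intensity of the 32 members differed by -0.18 to 0.17 (array of siRNA 2 minus array of siRNA 1, SD 0.0756), and the SUB1 siRNA log2 intensity by -0.66 to 0.59 (SD 0.315). For scale, spots of the 209 probes printed 10 times on each array had a median SD of 0.0781 and 0.0741 on the log2 ratio, while each member's probe was printed once.

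**Figure D2:**
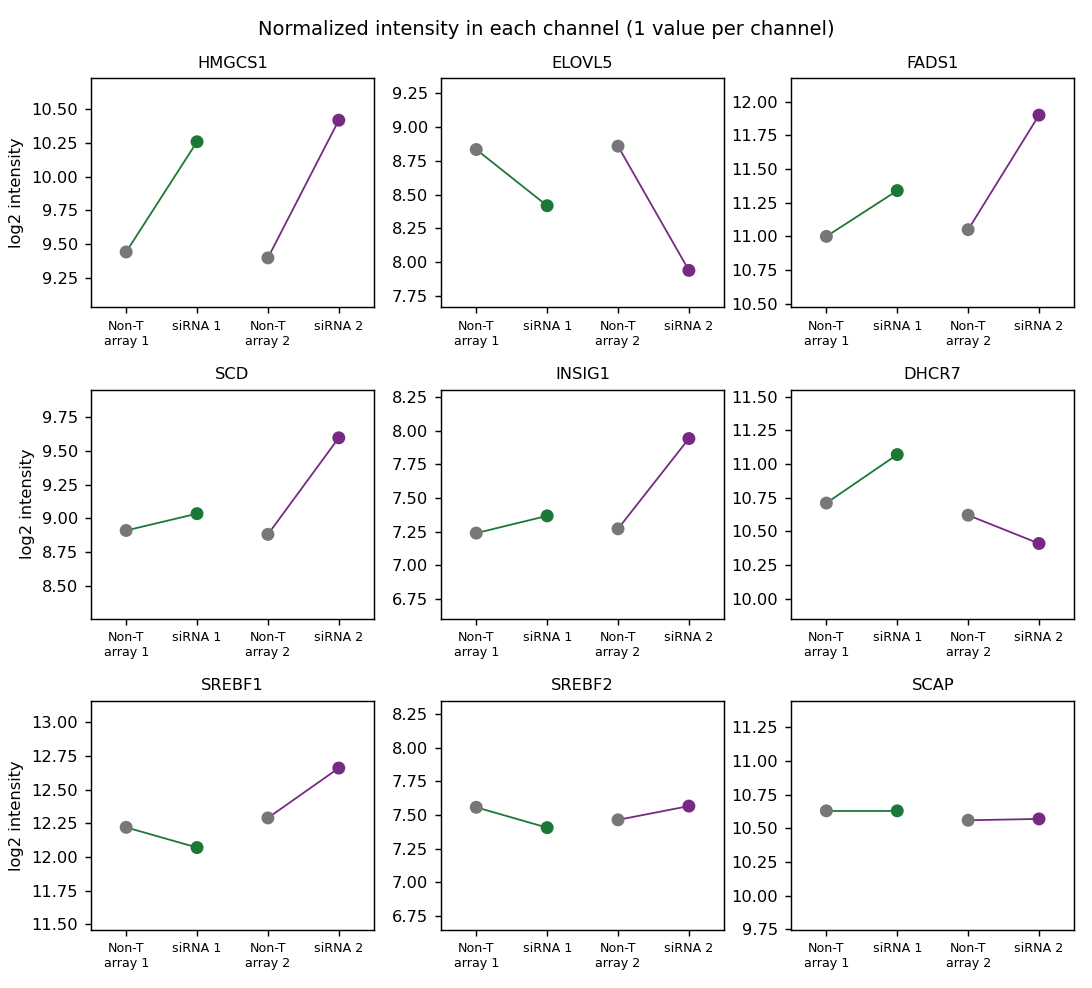
Normalized log2 intensity (y axis) of 9 members in the Non-T channel (grey) and the SUB1 siRNA channel (green for siRNA 1, purple for siRNA 2) of each array, 1 value per channel, with a line joining the channels of an array. All panels span the same number of log2 units. Non-T values of a gene lie close together, and the purple points of ELOVL5, FADS1, SCD and INSIG1 lie farther from Non-T than the green ones.

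Among the regulators, ratios lay within 0.4 of 0 apart from INSIG1 with siRNA 2. SREBF1, which encodes the binding proteins most tied to fatty acid genes, read 12.22 (Non-T) and 12.07 (siRNA 1) on the first array and 12.29 (Non-T) and 12.66 (siRNA 2) on the second, all as log2 intensities. Its siRNA 1 value was thus the lowest and its siRNA 2 value the highest of the 4, with log2 ratios of -0.15 and 0.37. A dimmer SREBF1 probe gave -0.26 and 0.06. SREBF2, the gene of the protein most tied to cholesterol synthesis, read 7.56 (Non-T) and 7.41 (siRNA 1), then 7.46 (Non-T) and 7.57 (siRNA 2). Its ratios were -0.15 and 0.10, and its other probe was not well above background in the Non-T channel of either array. With the arrays centred on their median in place of loess, the SREBF1 ratio with siRNA 1 became 0.14.

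SCAP, the escort protein, read 10.63 (Non-T) and 10.63 (siRNA 1), then 10.56 (Non-T) and 10.57 (siRNA 2), and its ratios of 0.01 and 0.02 were the closest to 0 among the regulators. INSIG1, which retains SCAP and is itself a known target of the pathway, read 7.24 (Non-T) and 7.37 (siRNA 1), then 7.27 (Non-T) and 7.94 (siRNA 2). Its siRNA 2 value stood above the other 3, with a ratio of 0.13 with siRNA 1 and 0.67 (1.59-fold) with siRNA 2. The limma mean of 0.40 (SE 0.16, n = 2 arrays) had an adjusted p of 0.256. INSIG2, a related retention protein, had ratios of -0.37 and 0.04 with its brighter probe and 0.07 and 0.55 with the dimmer one.

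HMGCS1, which makes HMG-CoA and feeds the mevalonate route, had the largest mean ratio of the 32. Its probe (chr5:43325874-43325933, minus strand, hg18) read 9.44 in the Non-T channel and 10.26 with siRNA 1, then 9.40 in the Non-T channel and 10.42 with siRNA 2. Both SUB1 siRNA values lay above both Non-T values. The log2 ratio was 0.81 (1.76-fold) with siRNA 1 and 1.02 (2.03-fold) with siRNA 2. The mean of 0.92 (SE 0.11, n = 2 arrays) was the 56th highest of 19218 genes, with an adjusted p of 0.112 in limma. A dimmer HMGCS1 probe (chr5:43326838-43326897, minus strand, hg18) read 6.87 and 7.07, then 6.99 and 7.13, with ratios of 0.20 and 0.14. Taken as the mean of both probes, HMGCS1 was not 2-fold higher with either siRNA (0.50 and 0.58).

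The other early enzymes of the sterol route had ratios within 0.4 of 0. IDI1, which isomerises isopentenyl diphosphate, had ratios of 0.29 and 0.39. FDFT1, the squalene synthase that commits the route to sterols, had ratios of 0.22 and 0.35. PMVK, a kinase of the mevalonate route, had ratios of 0.28 and 0.20. For these 3 genes the sign held under every processing alternative. ACAT2, the cytosolic thiolase of the first step, had ratios of 0.24 and -0.14, and a dimmer probe gave 0.34 and -0.04. MVK, MVD and FDPS, which act between mevalonate and farnesyl diphosphate, lay between -0.19 and 0.07 on both arrays.

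The late enzymes turn squalene into cholesterol, and their ratios pointed both ways. SC5DL (current symbol SC5D), the sterol desaturase near the end of the route, had ratios of 0.36 and 0.43, and a dimmer probe gave 0.44 and 0.54. Both of its kept probes therefore lay above 0 on both arrays. TM7SF2, a sterol reductase, had ratios of 0.45 and 0.25 (dimmer probe 0.11 and 0.06). CYP51A1, the lanosterol demethylase, had ratios of 0.26 and 0.37, while its dimmer probe gave -0.12 and 0.20. EBP, the sterol isomerase, had ratios of -0.41 and -0.24 with its 1 probe. It was the lowest of the late enzymes on each array, although the ratio with siRNA 2 became 0.08 with median centring. SQLE, LSS, SC4MOL (current symbol MSMO1), NSDHL and HSD17B7 lay between -0.16 and 0.23.

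DHCR7, a reductase at the end of the route, differed between the siRNAs. Its 1 probe (chr11:70823162-70823221, minus strand, hg18) read 10.71 (Non-T) and 11.07 (siRNA 1), then 10.62 (Non-T) and 10.41 (siRNA 2). The highest of the 4 values was that of siRNA 1 and the lowest that of siRNA 2, with ratios of 0.36 and -0.21. Under median centring the ratio with siRNA 2 was 0.03, so the opposite sign did not hold there.

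Of the 4 enzymes that build fatty acids, only ACLY was measured well above the lower end of the scale. ACLY, which makes cytosolic acetyl-CoA from citrate, read 8.56 (Non-T) and 8.43 (siRNA 1), then 8.56 (Non-T) and 8.22 (siRNA 2), with ratios of -0.13 and -0.34. The probes of FASN, which assembles palmitate, and ACACA, the cytosolic acetyl-CoA carboxylase, were not well above background in the Non-T channel of either array, and no fold is given for them. Their normalized log2 intensities lay between 6.35 and 6.54 in all 4 channels. The computed FASN ratio moved with the processing, from 0.13 and 0.00 as computed here to 0.52 and -0.45 with the processed signals of the scanner software. That of ACACA moved from -0.07 and 0.07 to -0.20 and -0.20. ACACB, the mitochondrial counterpart of ACACA, was well above background but dim (6.53 to 6.73 in the 4 channels), with ratios of 0.03 and 0.06. Signals this close to the lower end draw a ratio towards 0, so the small values of these 3 genes do not show that they did not change.

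The desaturases and elongases had the widest ratios, with a median size of 0.343 with siRNA 1 and 0.741 with siRNA 2, and these values were larger with siRNA 2 for 4 of the 5 genes. FADS1, a desaturase of polyunsaturated fatty acids, read 11.00 (Non-T) and 11.34 (siRNA 1), then 11.05 (Non-T) and 11.90 (siRNA 2), with its brighter probe (chr11:61326148-61326207, minus strand, hg18). The Non-T values were the lowest of the 4 and the siRNA 2 value the highest, and the ratios were 0.34 and 0.84. A second FADS1 probe, which was nearly as bright, gave 0.42 and 0.89. The limma mean was 0.59 (SE 0.15, n = 2 arrays), with an adjusted p of 0.156.

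FADS2, the desaturase that acts before FADS1, lies next to it on chromosome 11, with the upstream window at chr11:61815953-61816202 on the opposite strand. It read 11.10 (Non-T) and 11.45 (siRNA 1), then 11.27 (Non-T) and 12.01 (siRNA 2). Its ratios of 0.35 and 0.74 were close to those of FADS1 on the same arrays, and a dim probe, which was not well above background in the Non-T channel of the second array, gave 0.09 and 0.15. The adjusted p of FADS2 was 0.148 in limma.

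SCD, which makes monounsaturated fatty acids, read 8.91 (Non-T) and 9.03 (siRNA 1), then 8.88 (Non-T) and 9.60 (siRNA 2), with its brightest probe (chr10:102113907-102113966, plus strand, hg18). The siRNA 2 value stood above the other 3. Its ratios were 0.12 and 0.72 (1.64-fold), a difference of 0.59 that was the largest between the siRNAs among the members. A second SCD probe gave -0.11 and 0.30, so the sign with siRNA 1 and the size with siRNA 2 depended on the probe. The last SCD probe was not well above background in the Non-T channel of either array. The limma mean of 0.42 (SE 0.17, n = 2 arrays) had an adjusted p of 0.257.

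ELOVL5, which lengthens polyunsaturated fatty acids, was the lowest member. It read 8.83 (Non-T) and 8.42 (siRNA 1), then 8.86 (Non-T) and 7.94 (siRNA 2), with its brighter probe (chr6:53240845-53240904, minus strand, hg18). Both SUB1 siRNA values lay below both Non-T values. The ratios were -0.42 (1.34-fold lower) and -0.92 (1.89-fold lower), and the limma mean of -0.67 (SE 0.15, n = 2 arrays) had an adjusted p of 0.141. The other ELOVL5 probe was not well above background in the Non-T channel of either array. ELOVL6, which lengthens saturated fatty acids, had ratios of -0.14 and -0.08. Thus FADS1 and FADS2 were above Non-T and ELOVL5, which acts between them in the same chain of reactions, was below Non-T on both arrays.

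**Figure D3:**
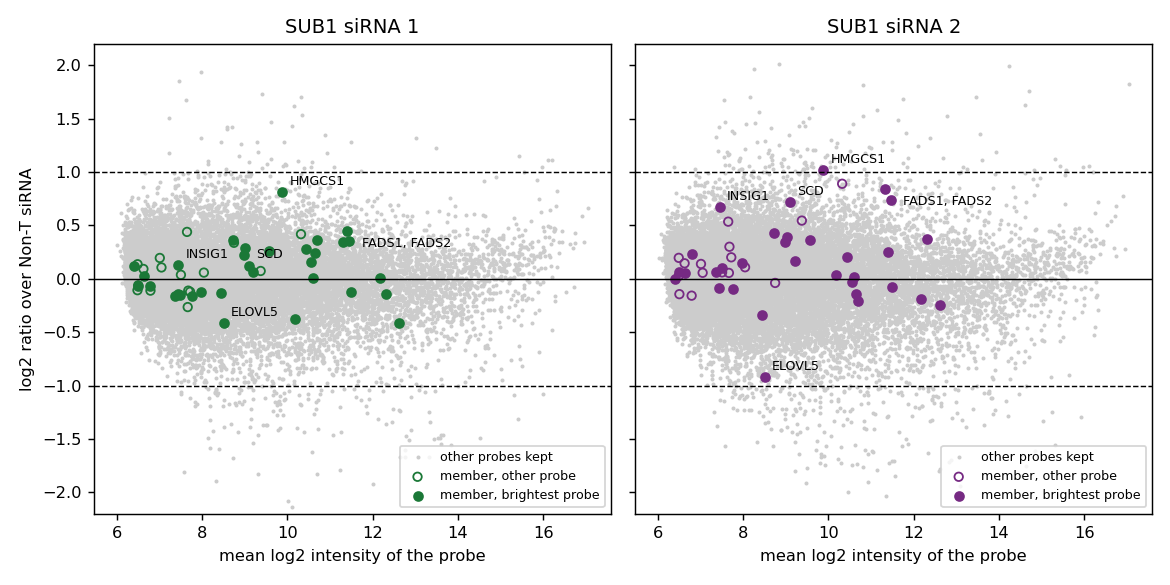
Log2 ratio over Non-T siRNA (y axis) against the mean log2 intensity of each kept probe (x axis), for siRNA 1 (left) and siRNA 2 (right); member probes are coloured, filled where they stand for the gene. Probes beyond the ends of the y axis are not drawn. The brightest probes of HMGCS1, FADS1 and FADS2 lie at mid to high intensity, and the dimmer probes of most members lie near 0.

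How well probes of 1 gene matched limits these values. For the 15 genes with several kept probes (31 probes), the median range between probes of a gene was 0.235 (siRNA 1) and 0.166 (siRNA 2), and its largest values, both in HMGCS1, were 0.617 and 0.879. The dimmer probe had the smaller ratio in HMGCS1 and TM7SF2, among others. In FADS1 and SC5DL the dimmer kept probe had the larger ratio on both arrays, as it did in ACAT2 with siRNA 1 and INSIG2 with siRNA 2. The dimmer probes of SREBF2, ELOVL5 and FADS2 and 1 of SCD were at background in the Non-T channel of at least 1 array. Where the used and the dimmer probe differ in brightness, background takes a larger share of the dim signal, and its part in the difference was not tested.

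**Figure D4:**
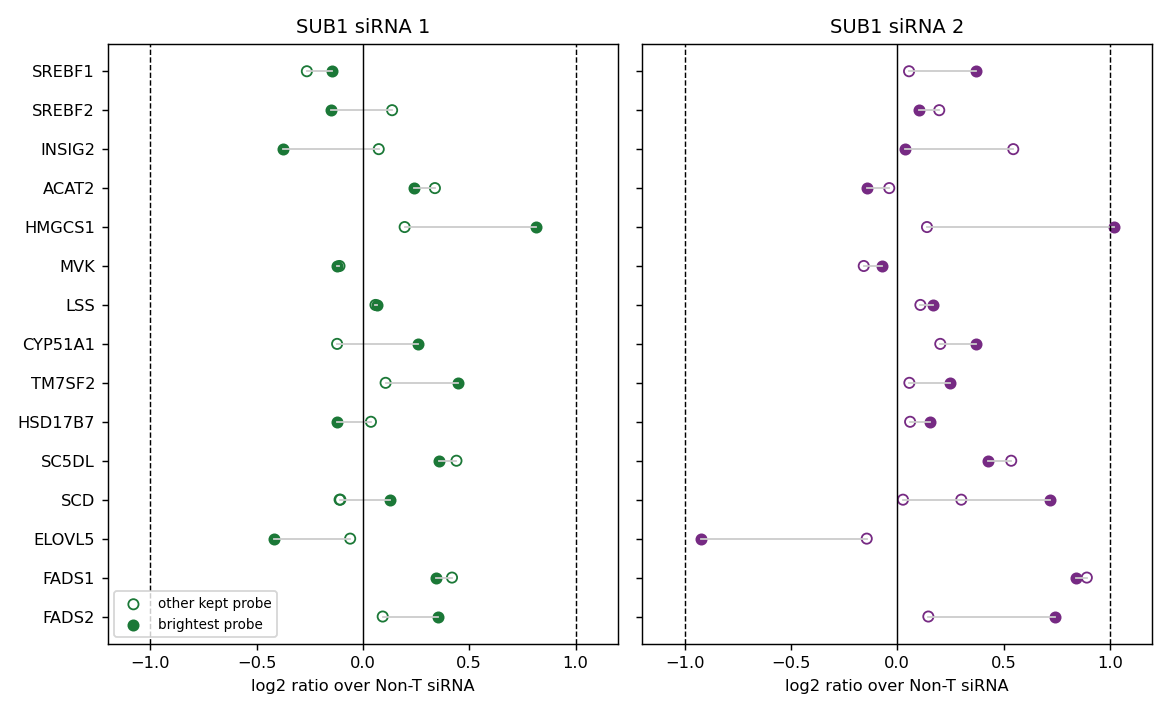
Log2 ratio over Non-T siRNA (x axis) of every kept probe of the 15 members with several, for siRNA 1 (left) and siRNA 2 (right); filled points mark the brightest probe and open points the others. FADS1 and SC5DL probes lie close together on both arrays, and HMGCS1, FADS2 and ELOVL5 probes lie apart.

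Related genes outside the 32 were read from 5 lists of the same pathway. Among 11 genes that process or turn over the binding proteins, 0 were 2-fold changed on either array. Of all genes, 0.208% were 2-fold higher and 0.609% lower with siRNA 1, and 0.614% and 1.07% with siRNA 2. At such shares a count of 0 does not set so short a list apart. The largest mean in that list was that of FBXW7, the ubiquitin ligase component that marks the nuclear forms for destruction, with log2 ratios of 0.60 and 0.61. PRKAA2, a catalytic subunit of AMP-activated protein kinase, had ratios of 0.34 and 0.17. The list had a median ratio of 0.21 with siRNA 1 and 0.00 with siRNA 2.

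Of 8 sterol genes outside the 32, 0 were 2-fold changed on either array, beside 1.07% of all genes or fewer in each direction. STARD4, a sterol carrier, had log2 ratios of -0.04 and 0.76, and ACAT1, the mitochondrial thiolase, -0.24 and -0.58. The list had medians of -0.01 and 0.07, the first of which was above 0 under 7 alternatives.

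Of the genes of cholesterol uptake, transport and storage, 10 were measured. Counts of this list past 2-fold are not reported here. LRP8, a lipoprotein receptor, was at least 1.5-fold lower on both arrays, beside 3.02% of all genes with siRNA 1 and 4.23% with siRNA 2. Its log2 ratios were -0.85 and -0.84. LIPA, the lysosomal lipase, had 0.44 and 0.46. The list had medians of -0.10 and 0.14, and the first became 0.14 with median centring.

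Liver X receptors raise cholesterol export when sterols accumulate. Of 5 measured genes of these receptors and their targets, 0 were past 1.5-fold on either array. Of all genes, 2.43% were higher and 3.02% lower at that threshold with siRNA 1, and 3.51% and 4.23% with siRNA 2. NR1H3, which encodes one of the receptors, had ratios of 0.21 and 0.27, LPCAT3 -0.24 and -0.09, and ABCA1, the cholesterol exporter, 0.19 and -0.47. The medians were 0.08 and 0.02, and the second turned below 0 under 6 alternatives.

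Of 22 other lipogenic genes measured, 0 were 2-fold changed, beside 1.07% of all genes or fewer in each direction. With siRNA 2 the 1.5-fold line was passed by 1 gene upward, beside 3.51% of all genes, and by 1 downward, beside 4.23%. The first was LPIN1, a phosphatidate phosphatase, with log2 ratios of 0.50 and 0.67. The second was PGD, an enzyme of the pentose phosphate route that supplies NADPH, with -0.29 and -0.87. ELOVL4, which makes very long fatty acids, had 0.54 and 0.47. The medians of this list were 0.06 and -0.09, and the second was 0.08 with median centring. Across all 5 lists, 0 genes passed an adjusted p of 0.05 in limma, beside 0.00520% of all genes (SUB1 alone).

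**Figure D5:**
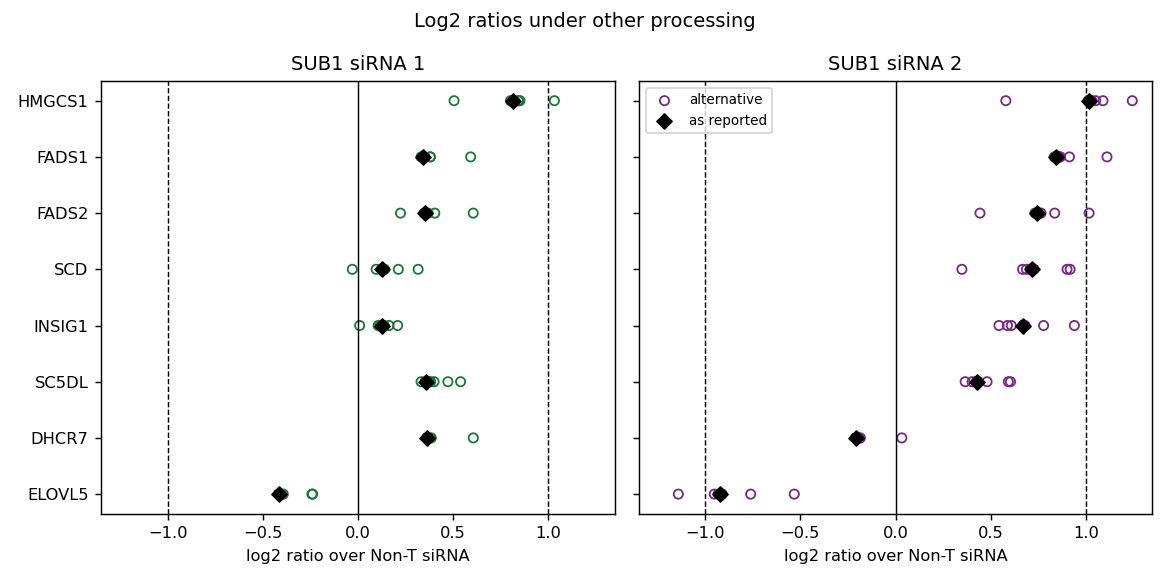
Log2 ratio over Non-T siRNA (x axis) of 8 members as reported (black diamonds) and under the other processing settings (open circles), for siRNA 1 (left) and siRNA 2 (right); dashed lines mark 2-fold. HMGCS1, FADS1, FADS2 and SC5DL lie above 0 and ELOVL5 below 0 throughout, and DHCR7 with siRNA 2 and SCD with siRNA 1 each cross 0 under 1 setting.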

How the data were processed

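RNA of PC3 cells was hybridised on 2 two-colour Agilent arrays. The authors scanned and quantified them with Agilent Feature Extraction (version 9.5.1.1 per the file headers, probe coordinates in hg18) and deposited spot intensity values, the software's log10 ratio (looked at only) and its p-value per spot. The authors also deposited a table of log2 ratios after loess with agilp, used as an alternative. With limma 3.58.1 (R 4.3.3), normexp with an offset of 50, which draws ratios of dim probes towards 0, was applied to mean signals and median local background. Control spots were removed, loess with a span of 0.3 was run on every array, and repeated spots were averaged without those carrying an outlier flag. Probes with at least 0.5 of their spots well above background in 1 channel on both arrays were kept (25673 of 41000), and the brightest probe stood for a gene. Of the 19218 genes, 13129 were named through a RefSeq table of GRCh38.p14, and 6089 kept the file's name. Log2 intensities are comparable between channels for 1 probe, not between probes. Changes were called at 2-fold per array, and the mean ratio was tested with limma's lmFit and eBayes on an intercept, and p-values were adjusted over all genes by Benjamini-Hochberg. The number of arrays limits the precision.

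Members and lists were chosen with earlier results of these data known. All members are given, with channel intensities for those past 2-fold, the 3 largest mean ratios of 1 sign, the 3 largest differences between siRNAs, SREBF1, SREBF2, INSIG1 and SCAP; FADS2 was added after its values were seen. In each other list the 3 largest mean ratios are named, except some genes that are not reported here. Alternatives changed background correction, spot summary, normalization, source of ratios, filters, probe rule, prior and threshold. The transcriptome sequencing, qPCR and other experiments were not analysed here.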

Additional observations from a re-analysis of the deposited data

Results flagged for a closer look

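The log2 ratios of 5 members had opposite signs with the siRNAs, each larger than the median SD between repeated spots. The difference between the siRNAs was not tested, since each had 1 array. Subtracting the siRNA 1 ratio from the siRNA 2 ratio gave -0.57 for DHCR7, 0.52 for SREBF1, -0.38 for ACAT2, 0.27 for HSD17B7 and 0.25 for SREBF2. DHCR7 and ACAT2, at a late and at the first step of cholesterol synthesis, were above Non-T with siRNA 1 and below it with siRNA 2, and SREBF1, HSD17B7 and SREBF2 the other way. With median centring, DHCR7 and ACAT2 were above 0 with siRNA 2 too, and SREBF1 and HSD17B7 were above 0 with siRNA 1. HSD17B7 had a dimmer probe above 0 with siRNA 1. The dimmer SREBF2 probe, not well above background in the Non-T channel of either array, was above 0 with both siRNAs (0.14 and 0.20).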

How the results depend on the processing

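The 7 summary values (4 counts past 2-fold, 2 medians and the limma count) gave 85 comparisons with an alternative. Of these, 73 were called the same. A count was so if equal to the reported one or, with both above 0, within 1.5-fold of it. A median was so if it moved by less than the median SD between repeated spots. The limma count and the count 2-fold lower with siRNA 1 were 0 as reported and in 13 of 13 comparisons each. Median centring in place of loess, which moved the median of all genes to 0.127 (siRNA 1) and 0.119 (siRNA 2), gave 1 member at least 2-fold higher with siRNA 1 and 3 with siRNA 2, and member medians of 0.23 and 0.26. With Feature Extraction's processed signals 1 member was 2-fold lower with siRNA 2, and with the mean of all probes 0 were 2-fold higher. The 1.5-fold rule gave 1 higher for siRNA 1, and for siRNA 2 it gave 5 higher and 1 lower; Feature Extraction's p-value gave 1 higher, and 6 higher and 1 lower. Over all genes, 40 were 2-fold higher and 117 lower with siRNA 1, and 118 and 205 with siRNA 2; median centring gave 137 and 56, then 266 and 101, and processed signals 778 and 298, then 994 and 474. The cause was not tested. No member passed limma's adjusted p of 0.05 under any alternative (10 at an unadjusted p under 0.05 as reported, 6 to 14 across them). With median centring, processed signals, the authors' ratios or no background correction, 0 of 19218 genes passed it, so SUB1 did not pass either. Under those settings the absence of members does not set them apart from other genes. The lowest adjusted p of a member was 0.0577 in limma (HMGCS1, no filter on dim probes), and the HMGCS1 mean ranged from 0.54 to 1.14. Single dimmer probes aside, the sign held under every alternative for 24 of 32 members with siRNA 1 and 21 with siRNA 2, and 4 and 9 signs changed with median centring. Leaving out either array leaves 1 ratio per gene, as printed, with no test. No paired analysis was possible because the siRNAs share fewer than 2 replicate numbers; each ratio already sets a siRNA against Non-T siRNA on its own array.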
